A study of Mus musculus with 24 samples.

Results

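The T cell genes described here are the 8 genes whose symbol in the FPKM tables is Cd3e, Cd3g, Cd3d, Cd2, Cd4, Cd8a, Lck or Il7r, and all 8 have a row in both tables. They are 8 of 23177 genes in the table of the Zbtb16 set and of 21688 genes in the table of the Sox3 set. All 24 libraries are RNA-seq of cells pulled as spermatogonia from mouse testes at postnatal day 7 with magnetic beads. Every group holds 3 libraries made from pooled mice. In the Zbtb16 set the groups are WT THY1+ uSPG (undifferentiated spermatogonia), WT KIT+ dSPG (differentiating spermatogonia) and both fractions of Zbtb16 null mice. The names uSPG and dSPG stand below for the sorted fractions, where genes of macrophages and Leydig cells were read too. The null allele is luxoid, which all cells of the animal carry, and the study's methods name WT and heterozygous littermates as its controls. In the Sox3 set the groups are the same fractions of WT mice and of Sox3 cKO mice, in which a floxed Sox3 is deleted by Ddx4-Cre, a driver of germ cells. FPKM is the number of reads per kilobase of a gene, scaled to the reads of the library, so levels of different genes can be compared per length.

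THY1, the surface protein used to pull down undifferentiated spermatogonia, is also carried by T cells of the mouse, and KIT by differentiating spermatogonia and mast cells. On T cells the CD3 chains (Cd3e, Cd3g, Cd3d and the zeta chain, Cd247) assemble with an antigen-binding pair of receptor chains, either alpha and beta or gamma and delta. The kinase LCK, held by the coreceptors CD4 and CD8, phosphorylates the CD3 tails when antigen is bound. CD2 is an adhesion receptor of T and NK cells, and IL7R is the alpha chain of the receptor for IL-7, a survival cytokine of lymphocytes. ZBTB16, also called PLZF, is a transcription factor of spermatogonial stem cells and of innate-like T cells and innate lymphoid precursors.

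The labels were checked against the genes they rest on. In WT THY1+ uSPG Thy1 was at 3.29 to 4.41 FPKM and Kit at 13.8 to 21.1 FPKM, and in WT KIT+ dSPG Thy1 was at 0.156 to 0.524 FPKM and Kit at 52.5 to 69.7 FPKM. Zbtb16 was lower in null THY1+ uSPG (17.1 ± 1.33 FPKM, SD, n = 3) than in WT THY1+ uSPG (52.1 ± 8.93), and Sox3 was at most 0.0820 FPKM in the 6 Sox3 cKO libraries. In the Sox3 set the WT libraries go against their labels. Thy1 was at 0.213 to 0.254 FPKM in the libraries labelled WT THY1+ and 3.59 to 4.06 FPKM in those labelled WT KIT+, and Kit ran the other way. These 6 libraries are called by their labels below and were not regrouped. Whole reads could be recovered from the FPKM steps, since the values of 97.4% of low genes in the Zbtb16 set and 98.0% in the Sox3 set fell within 0.01 reads of whole numbers, and gave 26.0 to 35.2 and 22.0 to 35.5 M (mega) counted reads per library.

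Cd3g, Cd3d and Cd3e lie side by side on chromosome 9 (GRCm38, GENCODE), within 40.1 kb. Cd3g (ENSMUSG00000002033) is at chr9:44969572-44980431 on the minus strand and Cd3d (ENSMUSG00000032094) at chr9:44981786-44987339 on the plus strand, so that their starts are 1355 bases apart and point away from each other. Cd3e (ENSMUSG00000032093) is at chr9:44998740-45009627 on the minus strand, and an antisense gene, Gm48719, shares exon sequence with it. Thy1 lies on the same chromosome at chr9:44043384-44048579 and Zbtb16 at chr9:48654297-48836222. The other members are dispersed, with Cd2 (ENSMUSG00000027863) at chr3:101275899-101287939, Cd4 (ENSMUSG00000023274) at chr6:124864692-124888221, Cd8a (ENSMUSG00000053977) at chr6:71373427-71379173, Lck (ENSMUSG00000000409) at chr4:129548344-129573641 and Il7r (ENSMUSG00000003882) at chr15:9505788-9530176. The reads and FPKM values together gave the length each gene had been scaled by, which was the same in both tables and ran from 1070 bases for Cd3g to 4032 bases for Cd4.

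The promoters of the CD3 genes, which encode chains of 1 complex, are shown because Cd3g lay above its neighbours Cd3d and Cd3e in every THY1+ library of the Zbtb16 set below. Each line gives the 250 bases before the RefSeq start (GRCm38.p6), read on the strand of the gene, at chr9:44980432-44980681 for Cd3g, chr9:44981536-44981785 for Cd3d and chr9:45009612-45009861 for Cd3e. Capitals mark matches on either strand to 6 short motifs, none of which overlap here. The letters searched were CANNTG for the E-box of basic helix-loop-helix factors, GGAAGT for the ETS factors and TGTGGT for the RUNX factors. They were AGATAA for the zinc finger factors of the GATA family, CTTTGA for the factors related to TCF7 and TATAAA for the box bound by the TATA-binding protein.
Cd3g: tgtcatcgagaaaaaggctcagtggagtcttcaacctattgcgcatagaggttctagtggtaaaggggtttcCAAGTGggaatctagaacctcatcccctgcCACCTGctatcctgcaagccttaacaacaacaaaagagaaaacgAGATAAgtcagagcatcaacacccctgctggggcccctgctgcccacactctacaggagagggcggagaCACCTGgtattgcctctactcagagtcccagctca
Cd3d: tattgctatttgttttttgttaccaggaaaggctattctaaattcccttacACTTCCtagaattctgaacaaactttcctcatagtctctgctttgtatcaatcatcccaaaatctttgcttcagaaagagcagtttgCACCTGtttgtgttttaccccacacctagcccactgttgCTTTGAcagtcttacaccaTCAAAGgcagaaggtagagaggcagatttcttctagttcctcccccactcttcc
Cd3e: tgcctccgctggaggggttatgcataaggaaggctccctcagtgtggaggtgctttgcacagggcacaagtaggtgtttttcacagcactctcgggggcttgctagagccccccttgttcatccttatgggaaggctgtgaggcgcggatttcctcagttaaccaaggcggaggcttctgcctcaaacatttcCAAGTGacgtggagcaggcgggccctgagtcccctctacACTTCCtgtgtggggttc
The Cd3g window holds 3 E-box matches and 1 GATA match, the Cd3d window 1 E-box, 1 ETS and 2 TCF matches, and the Cd3e window 1 E-box and 1 ETS match. Among 32851 promoter windows of this length 66.2% hold an E-box, 19.7% the ETS letters, 14.0% RUNX, 9.99% GATA, 13.8% TCF and 12.4% the TATA box. No TATA box letters are in these 3 windows, whose GC content runs from 41.2% for Cd3d to 57.2% for Cd3e against a median of 52.4% over all windows. Of the 8 members 6 have a promoter in the table, all but Cd2 and Cd4.

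The comparison of WT KIT+ dSPG with WT THY1+ uSPG describes where RNA of these genes went in the sort. Of the 8 genes 7 were lower in KIT+ dSPG, and Cd3e did not pass the test. Here and below a gene is called where its Benjamini-Hochberg adjusted p in limma was at most 0.05 over all genes tested and the fold at least 1.5, and 14.0% of the 22374 genes tested were called lower. The median log2 change over the 8 genes was -1.81, against -0.03 over all genes. In bulk RNA fewer cells of a type and less RNA per cell cannot be told apart.

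Cd3g, the gamma chain of CD3, was the most abundant of the 8 in THY1+ uSPG. Its levels in the WT THY1+ libraries were 6.27, 6.28 and 5.90 FPKM, from 202, 202 and 198 reads. In WT KIT+ dSPG it was at 0.131, 0.0797 and 0.0633 FPKM, from 4, 3 and 2 reads. The groups did not overlap, and the log2 change was -5.05 (SE 0.21, limma adjusted p = 4.69e-08). On reads alone the ratio of THY1+ to KIT+ was 68.2, with an exact 95% interval of 35.7 to 150 that covers counting error only. Cd3d, the delta chain, was at 0.552, 0.528 and 0.627 FPKM in WT THY1+ uSPG and at 0.239, 0.0644 and 0.0768 FPKM in WT KIT+ dSPG (log2 change -1.64, SE 0.31, limma adjusted p = 0.00228).

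Cd3e, the epsilon chain, was the exception among the 8. It was at 0.740, 0.834 and 0.667 FPKM in WT THY1+ uSPG and at 0.757, 0.475 and 0.495 FPKM in WT KIT+ dSPG, and the groups overlap. The log2 change was -0.35 (95% interval -0.99 to 0.30, limma adjusted p = 0.420), from 98 reads in the 3 THY1+ libraries and 76 in the 3 KIT+ libraries. It was therefore the second highest of the 8 in KIT+ dSPG, after Lck, while Cd3g and Cd3d fell to at most 4 and 9 reads per library. Whether counting used strand is not given in the sources used here, so the part of Cd3e reads that come from the antisense gene was not tested.

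The coreceptors were both lower in KIT+ dSPG. Cd4 was at 3.03, 3.15 and 2.38 FPKM in WT THY1+ uSPG and at 0.157, 0.0705 and 0.0504 FPKM in WT KIT+ dSPG, a log2 change of -3.97 (SE 0.30, limma adjusted p = 3.17e-06). Cd8a was at 0.499, 0.298 and 0.326 FPKM against 0.0896, 0.0363 and 0.0324 FPKM (log2 change -1.63, SE 0.21, limma adjusted p = 0.000153). Cd4 exceeded Cd8a in every THY1+ library, and their ratio was 6.08, 10.6 and 7.30. CD4 is also made by macrophages and dendritic cells, whose genes are described below.

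Lck, the kinase that starts signalling from the receptor, kept the highest level of the 8 in the KIT+ fraction. It was at 2.28, 2.12 and 1.98 FPKM in WT THY1+ uSPG and at 1.14, 0.961 and 1.33 FPKM in WT KIT+ dSPG, a log2 change of -0.85 (SE 0.18, limma adjusted p = 0.00407). Its 95 to 115 reads in each KIT+ library are well above those of the other 7 genes, which had 2 to 31. With a pseudocount of 1 the folds of Lck, Cd3d and Cd8a came out under 1.5 and 4 genes passed.

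Cd2 and Il7r separated the fractions without overlap. Cd2 was at 1.28, 0.899 and 1.39 FPKM in WT THY1+ uSPG and at 0.201, 0.310 and 0.175 FPKM in WT KIT+ dSPG (log2 change -1.97, SE 0.24, limma adjusted p = 0.000127). Il7r was at 0.932, 0.965 and 1.21 FPKM against 0.0328, 0.0177 and 0.0422 FPKM (log2 change -3.11, SE 0.19, limma adjusted p = 5.37e-07). For Il7r the KIT+ libraries held 3, 2 and 4 reads, at or near the 3 reads taken as the floor of detection, which here equal 0.0266 to 0.0328 FPKM. These folds are on the scale of log2(FPKM + 0.1), which understates the change of low genes.

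**Figure D1:**
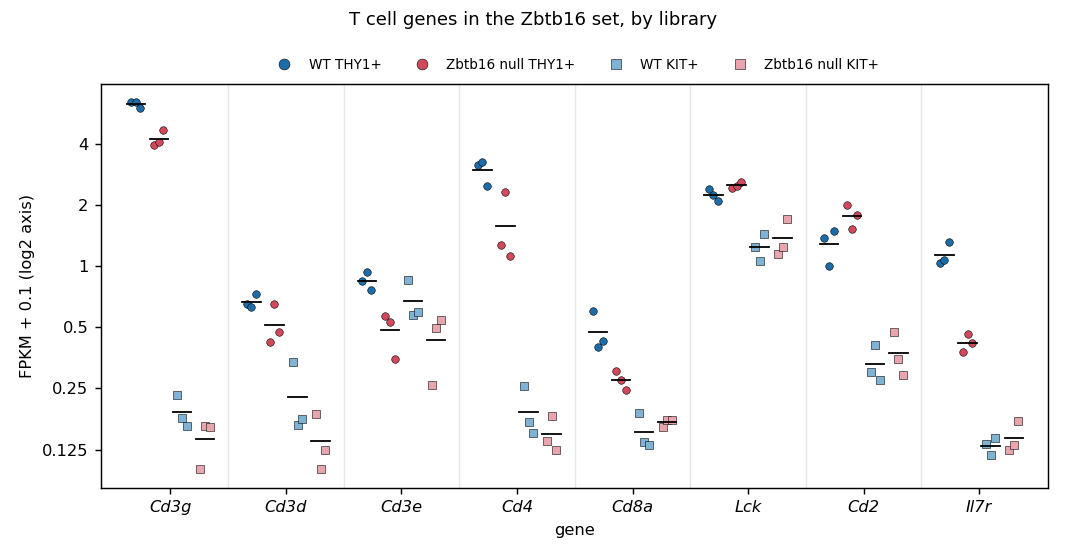
FPKM + 0.1 (log2 axis) of the 8 T cell genes in the 12 libraries of the Zbtb16 set, with a point for each library and a bar at the mean of 3. Circles (THY1+) lie above squares (KIT+) for all genes but Cd3e, where the fractions overlap, and Lck squares lie near 1 while those of Cd3g, Cd4, Cd8a and Il7r lie near the bottom of the axis.

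Null mice showed the same genes on the THY1+ side. Of the 8 genes 7 were lower in null KIT+ dSPG than in null THY1+ uSPG, where 16.0% of all genes tested were called lower, and Cd3e again did not pass (log2 change -0.20, limma adjusted p = 0.637). Cd3g had 0, 2 and 2 reads in null KIT+ dSPG and 115, 117 and 149 in null THY1+ uSPG. The log2 changes were -4.93 for Cd3g, -3.34 for Cd4, -2.26 for Cd2, -1.93 for Cd3d, -1.56 for Il7r, -0.89 for Lck and -0.69 for Cd8a. The call of Cd8a was lost without null THY1+ replicate 1 (adjusted p = 0.0732) or null KIT+ replicate 1 (adjusted p = 0.0540), both by limma.

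Within the THY1+ fraction the 8 genes spanned a wide range of levels per length. In WT THY1+ uSPG the order was Cd3g, Cd4, Lck, Cd2, Il7r, Cd3e, Cd3d and Cd8a, with means from 6.15 ± 0.215 to 0.374 ± 0.109 FPKM (SD, n = 3), and of neighbours in that order only Cd2 and Il7r overlapped. Cd3g exceeded Cd3e 8.47, 7.53 and 8.86 times and Cd3d 11.4, 11.9 and 9.42 times, although the 3 chains are parts of the same complex. Spread between libraries was close to counting error for some genes and above it for others. Among the 3 WT THY1+ libraries the coefficient of variation was 3.50% for Cd3g and 6.97% for Lck, where counting alone gives 7.06% and 7.25%, and 14.5% for Cd4, where it gives 5.34%.

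The antigen-binding chains were measured beside CD3. Of 7 receptor chain genes analysed, 6 were lower in WT KIT+ dSPG than in WT THY1+ uSPG and Cd247, the zeta chain, did not pass. Over all genes tested 14.0% were called lower there. In WT THY1+ uSPG the alpha and beta constant genes (Trac, Trbc1, Trbc2) summed to 3.58, 3.67 and 3.75 FPKM and the gamma constant genes (Tcrg-C1, Tcrg-C2, Tcrg-C4) to 4.13, 3.49 and 3.93 FPKM. Chains of both receptor types were thus present at like levels, and the delta constant gene, Trdc, was not analysed here. Tcrg-C1 was at 2.18, 2.31 and 2.09 FPKM in WT THY1+ uSPG and is listed at 0 in all 6 KIT+ libraries. Trac was at 0.884, 0.645 and 0.541 FPKM in WT THY1+ uSPG and at 0.170, 0 and 0.0820 FPKM in WT KIT+ dSPG.

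Cd247 stood apart from the other chains. It was at 8.62, 10.1 and 7.98 FPKM in WT THY1+ uSPG and at 6.72, 8.61 and 7.48 FPKM in WT KIT+ dSPG, and the groups overlap (log2 change -0.22, 95% interval -0.49 to 0.04, limma adjusted p = 0.193). Its level in KIT+ dSPG was above that of every member. Genes of the constant regions can share reads with near copies (Trbc1 with Trbc2, and the gamma genes with each other), and how such reads were divided was not tested.

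**Figure D2:**
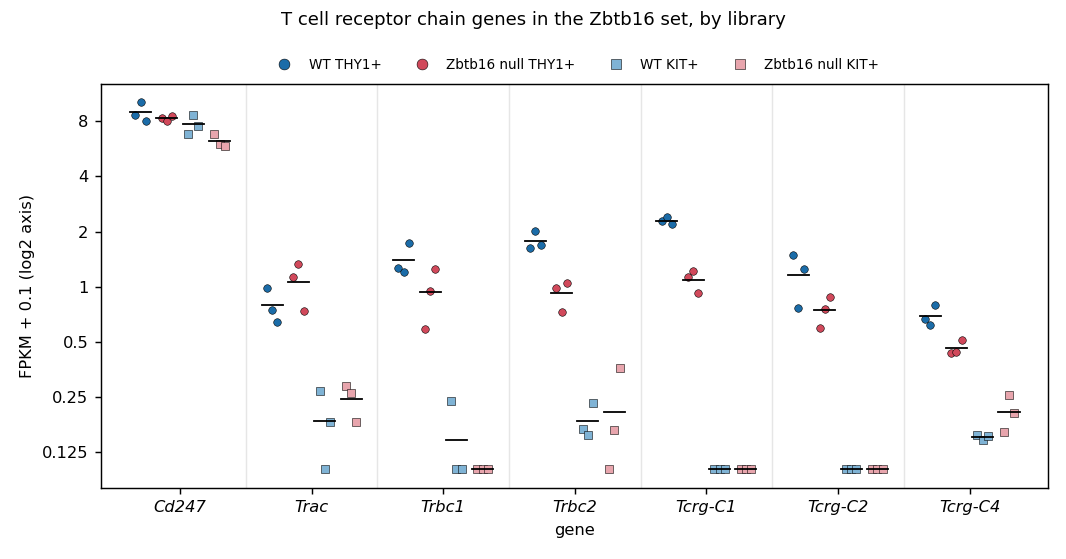
FPKM + 0.1 (log2 axis) of 7 receptor chain genes in the 12 libraries of the Zbtb16 set, with a point for each library and a bar at the mean of 3. Cd247 lies between 5.77 and 10.1 FPKM in all groups, whereas the constant genes of both receptor types are near the bottom of the axis in KIT+ libraries, with Tcrg-C1 and Tcrg-C2 at 0 FPKM in all 6.

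The comparison of null with WT THY1+ uSPG asks which of these genes moved without ZBTB16. Il7r fell and the other 7 did not pass the test, while 1.26% of all genes tested were called lower and 2.71% higher. Members moved unequally. Il7r was lowered the most, Cd4, Cd3e, Cd8a and Cd3g had lower means in null uSPG, and Cd2 and Lck had higher ones. In 5 of the 8 genes every null library was below every WT library, a pattern seen in 14.1% of genes tested, and in 2 of the 8 every null library was above, seen in 15.5%. The median log2 change over the 8 was -0.67, against -0.03 over all genes. Lists of other cells had median log2 changes of -0.75 for 12 macrophage genes (12 negative, 1 called), -0.84 for 8 Leydig cell genes (8 negative, 0 called), -0.73 for 10 peritubular and stromal genes (10 negative, 0 called) and 0.32 for 8 genes of all germ cells (8 positive, 2 called). Their part in the result was not tested.

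Il7r was at 0.277, 0.362 and 0.317 FPKM in null THY1+ uSPG, where WT libraries had 0.932, 0.965 and 1.21. All 3 null libraries lie below all 3 WT libraries. The log2 change was -1.44 (SE 0.19, 95% interval -1.84 to -1.03, limma adjusted p = 0.00189). Reads fell from 305 in the WT group to 88 in the null group at like depth. Over 20 alternative settings the adjusted p of Il7r ran from 0.00015 to 0.0315, and all 20 kept the call, while a filter at a mean of 1 FPKM left the gene untested.

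Neither coreceptor passed, although all 3 null libraries were below the WT ones for both. Cd4 was at 1.16, 2.22 and 1.02 FPKM in null uSPG (log2 change -0.98, 95% interval -1.63 to -0.33, limma adjusted p = 0.0813), and replicate 2 lies apart from the other 2 null libraries. Without that library the log2 change was -1.30 and passed (limma adjusted p = 0.0292). Cd8a was at 0.204, 0.174 and 0.147 FPKM (log2 change -0.77, 95% interval -1.22 to -0.32, limma adjusted p = 0.0545), and it passed without WT KIT+ replicate 1 (limma adjusted p = 0.0414). Both coreceptors passed with the replicate number as a block (limma adjusted p = 0.0247 for Cd4 and 0.0209 for Cd8a). Over all genes that fit called 1004 lower, against 283 without the block. The ratio of Cd4 to Cd8a, 8.47 ± 3.75 in null and 7.99 ± 2.33 in WT uSPG (SD, n = 3), overlapped between the groups.

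The CD3 chains had lower means in null uSPG and did not pass. Cd3g was at 3.81, 3.97 and 4.56 FPKM, all below the WT libraries (log2 change -0.57, 95% interval -1.04 to -0.10, limma adjusted p = 0.138). Cd3e was at 0.470, 0.430 and 0.251 FPKM, also all below (log2 change -0.84, 95% interval -1.48 to -0.19, limma adjusted p = 0.122). For Cd3d, at 0.322, 0.549 and 0.371 FPKM, the groups overlap (log2 change -0.40, 95% interval -1.08 to 0.27, limma adjusted p = 0.451).

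Lck and Cd2 had the opposite sign. Lck was at 2.31, 2.37 and 2.49 FPKM in null uSPG, each above the WT libraries, and its log2 change of 0.16 has a 95% interval of -0.22 to 0.55 (limma adjusted p = 0.608). Cd2 was at 1.90, 1.42 and 1.67 FPKM, where the WT libraries reached 1.39, with a log2 change of 0.46 (95% interval -0.07 to 0.99, limma adjusted p = 0.267). Neither interval excludes 0, so a direction was not shown for these genes.

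Among receptor chains Tcrg-C1 fell in null THY1+ uSPG and the other 6 did not pass. It was at 1.03, 1.12 and 0.822 FPKM (log2 change -1.08, SE 0.15, limma adjusted p = 0.00290). Trac was at 1.03, 1.23 and 0.635 FPKM (log2 change 0.41, limma adjusted p = 0.512), and Trbc2 at 0.886, 0.627 and 0.944 FPKM (log2 change -0.96, limma adjusted p = 0.152). The summed gamma constant genes were at 1.85, 2.11 and 2.01 FPKM in null uSPG, and the summed alpha and beta genes at 2.40, 2.71 and 2.73 FPKM.

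**Figure D3:**
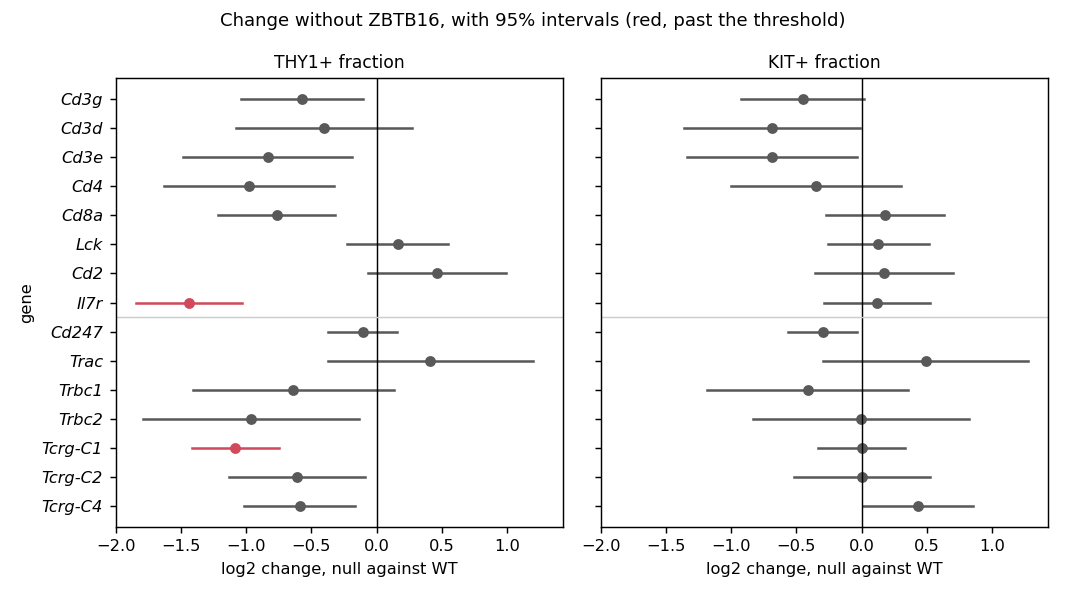
Log2 change of null against WT, with 95% intervals from limma, for the 8 T cell genes (above the grey line) and 7 receptor chain genes in the THY1+ and KIT+ fractions. Il7r and Tcrg-C1, in red, pass the threshold in the THY1+ fraction, and no gene of the plot passes in the KIT+ fraction.

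In KIT+ dSPG no member passed between null and WT, where 0.259% of all genes were called in either direction and 3863 had an unadjusted p under 0.05. Log2 changes ran from -0.69 for Cd3d to 0.18 for Cd8a. Cd3g, Cd3d, Cd4, Cd8a and Il7r had at most 18 reads in each KIT+ library, and Cd4 had 34 reads in the WT group and 17 in the null group. The interaction of genotype and fraction tests whether the change differed between the fractions, and no member passed it, where 0.0313% of genes tested were called in either direction and 5014 had an unadjusted p under 0.05. For Il7r the interaction was 1.55 on the log2 scale (SE 0.26, limma adjusted p = 0.0788). It passed without null KIT+ replicate 1 (limma adjusted p = 0.0405) or with a pseudocount of 1 (limma adjusted p = 0.0163). With the replicate number as a block Il7r and Cd8a passed (limma adjusted p = 0.01485 and 0.03613). Over all genes that fit called 2027 higher and 729 lower, against 1 and 6 without the block, so these 2 calls are not particular to the members. The KIT+ levels of Il7r, from 9 reads in the WT and 12 in the null group, lie under the pseudocount of 0.1 FPKM. Its interaction therefore mostly repeats the change in THY1+ uSPG and cannot decide whether the fractions differ.

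The members were also set against a gene shared by leukocytes. Ptprc, the CD45 phosphatase of all leukocytes, was at 8.72 ± 0.692 FPKM in WT and 6.79 ± 1.18 FPKM in null THY1+ uSPG (SD, n = 3), and did not pass (log2 change -0.37, limma adjusted p = 0.567). Per Ptprc, Il7r was at 0.120 ± 0.0284 in WT and 0.0471 ± 0.00299 in null uSPG (SD, n = 3), and the groups do not overlap. Lck per Ptprc was 0.244 ± 0.0106 in WT and 0.359 ± 0.0589 in null uSPG, and Cd3g per Ptprc 0.707 ± 0.0330 and 0.618 ± 0.121. Cd4 per Ptprc was 0.326 ± 0.0228 in WT and 0.210 ± 0.0562 in null uSPG, and Cd3e per Ptprc 0.0856 ± 0.00503 and 0.0572 ± 0.0198. Of 11 ratios compared, the exact two-sided permutation p was 0.1 for Il7r, Lck, Cd4 and Cd3e, whose groups do not overlap, the smallest that 3 against 3 libraries allow, and 0.3 for Cd3g, and no adjusted p was below 0.275 (Benjamini-Hochberg). No direction was shown for these ratios, and the part of cell makeup in these changes was not tested.

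The Sox3 set gives the same genes in other mice. Of the 8 members 7 were lower in Sox3 cKO KIT+ dSPG than in Sox3 cKO THY1+ uSPG, where 12.2% of 21212 genes tested were called lower, and Cd3e did not pass (log2 change -1.37, SE 0.48, limma adjusted p = 0.0528). Fitted without the WT libraries Cd3e passed too (limma adjusted p = 0.0454). Cd3g was at 9.92, 7.04 and 10.03 FPKM in cKO THY1+ uSPG and at 0.0992, 0 and 0.158 FPKM in cKO KIT+ dSPG, a log2 change of -5.70 (SE 0.40, limma adjusted p = 1.06e-06). Cd4 was at 3.90, 3.53 and 3.19 FPKM against 0.0966, 0.0839 and 0.0419 FPKM. Il7r was at 1.32, 0.877 and 1.78 FPKM against 0.0331, 0 and 0.0263 FPKM, which is 125, 62 and 128 reads against 3, 0 and 2.

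Among WT libraries of this set the T cell genes followed Thy1 and not the label. Of the 8 members 7 were higher in the libraries labelled WT KIT+ than in those labelled WT THY1+, where 13.1% of genes tested were called higher, and Cd3e did not pass. Cd3g was at 11.3, 13.1 and 8.25 FPKM in the libraries labelled WT KIT+ and at 0.117, 0 and 0.138 FPKM in those labelled WT THY1+. Il7r had 114, 96 and 90 reads against 1, 0 and 0, a ratio of 292 with an exact 95% interval of 52.0 to 11561 that covers counting error only. Lck, as in the Zbtb16 set, was the highest of the 8 in the low libraries, at 1.05, 1.08 and 0.909 FPKM.

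Comparisons between cKO and WT as labelled therefore set high against low libraries. As labelled, all 8 members were higher in cKO than in WT THY1+ libraries (background 17.8% called higher), and 7 were lower in cKO than in WT KIT+ libraries (background 12.6% called lower). Every cKO library was above every WT library for 8 members in THY1+ libraries, as for 26.1% of genes tested, and below for 7 members in KIT+ libraries, as for 24.8%. The call of Cd3e in the first of these was lost without any of WT THY1+ replicates 1 and 2 or cKO THY1+ replicates 2 and 3, with limma adjusted p of 0.0545 to 0.0932. Compared with the libraries labelled WT KIT+, which share high Thy1, cKO THY1+ uSPG differed in no member at the threshold, where 0.0707% of genes were called in either direction and 2793 had an unadjusted p under 0.05. The intervals of the log2 changes were -0.29 to 0.81 for Il7r, -0.24 to 0.65 for Cd4 and -1.13 to 0.60 for Cd3g. Compared with the libraries labelled WT THY1+, cKO KIT+ dSPG also differed in no member, while 17.0% of genes were called and 8080 had an unadjusted p under 0.05.

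The Sox3 effect averaged over both fractions does not depend on which WT group is which. No member passed it, with log2 changes from -0.28 for Cd3d to 0.46 for Cd3e, while 10.3% of genes were called in either direction and 8155 had an unadjusted p under 0.05. For Il7r the averaged log2 change was 0.23 (SE 0.18, limma adjusted p = 0.361). The change of Il7r in Zbtb16 null uSPG and this value come from tables that were normalized separately, and their difference was not tested.

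**Figure D4:**
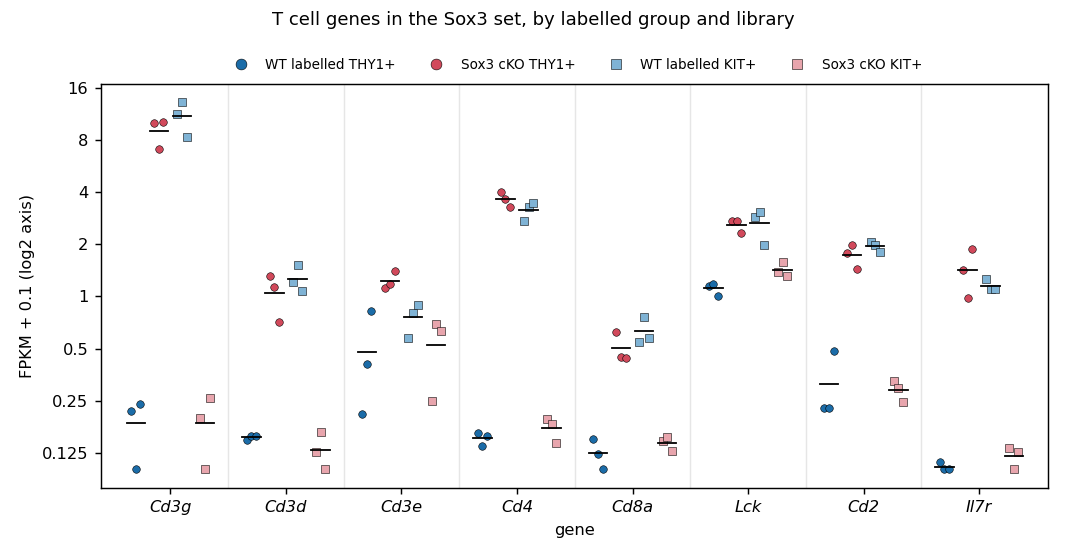
FPKM + 0.1 (log2 axis) of the 8 T cell genes in the 12 libraries of the Sox3 set, by label, with a point for each library and a bar at the mean of 3. The libraries labelled WT KIT+ (light blue squares) lie near the Sox3 cKO THY1+ libraries (red circles), and those labelled WT THY1+ (dark blue circles) near the Sox3 cKO KIT+ libraries. For Cd3e the WT groups overlap, at 0.109 to 0.721 and 0.477 to 0.793 FPKM.

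Genes that act with the members were read from lists. For counts of list genes lower in WT KIT+ dSPG, here and below, the share over all genes tested was 14.0%. Of 12 tested genes of receptor signalling, 10 were lower in WT KIT+ dSPG than in WT THY1+ uSPG, and of these Fyn, a kinase related to Lck, was at 28.9 ± 2.12 and 16.0 ± 4.07 FPKM (SD, n = 3). Lat, the adaptor phosphorylated after receptor binding, was at 6.18 ± 0.441 FPKM in WT and 11.98 ± 0.650 FPKM in null THY1+ uSPG, and it was the sole signalling gene to pass there (log2 change 0.95, SE 0.11, limma adjusted p = 0.000896). Among 12 tested surface proteins 7 were lower in WT KIT+ dSPG. In null THY1+ uSPG Cd7 rose (log2 change 0.67, limma adjusted p = 0.0380) and Cxcr6, a chemokine receptor, fell (log2 change -0.80, limma adjusted p = 0.00290). Cd28 and Icos, costimulatory receptors of T cells that were chosen after their values were seen, fell too, with log2 changes of -0.88 and -1.26.

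Levels within the lists were uneven. In WT THY1+ uSPG 7 of 13 signalling genes and 5 of 13 surface proteins had a mean of at least 1 FPKM. Cd5 was at a mean of 0.207 FPKM in WT THY1+ uSPG, Cd6 at 0.177 and Themis, a signalling protein of developing T cells, at 0.0947, all 3 chosen after their values were seen. Among 12 transcription factors 4 were lower and Runx3 was higher in WT KIT+ dSPG, and the most abundant of the list, Tcf7, had 23.9 ± 4.58 FPKM in the THY1+ fraction of WT mice and 17.7 ± 3.93 FPKM in their KIT+ fraction without passing (limma adjusted p = 0.112). Gata3, likewise chosen afterwards, was the sole factor to pass between null and WT THY1+ uSPG, with a log2 change of -0.97 (limma adjusted p = 0.0419). Of 9 genes of IL-7 receptor signalling 5 were lower in WT KIT+ dSPG and none passed between null and WT THY1+ uSPG, where Jak1, the kinase bound to IL7R, was at 43.1 ± 4.17 FPKM in null and 57.9 ± 7.14 FPKM in WT libraries (SD, n = 3, limma adjusted p = 0.0866).

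NK and innate lymphoid genes were also on the THY1+ side. The list of 12 summed to 22.0 to 22.2 FPKM in WT THY1+ uSPG, where the 8 T cell genes summed to 14.5 to 15.6 FPKM, and 11 of the 12 were lower in WT KIT+ dSPG, with a median log2 change of -3.38 over the list and Prf1, the perforin gene, higher. Gzma, a granule protease of killer cells, was at 3.30 ± 0.642 FPKM in WT and 4.26 ± 1.503 FPKM in null THY1+ uSPG (limma adjusted p = 0.556). Rora, a nuclear receptor of innate lymphoid cells, rose from 3.13 ± 0.0670 to 5.25 ± 0.259 FPKM (limma adjusted p = 0.0140). Gzmb and Il1rl1, the IL-33 receptor, fell, with log2 changes of -0.82 and -1.49, and both were chosen after their values were seen. Lck, Cd2 and Il7r are also made by NK or innate lymphoid cells, so these 3 members do not mark T cells alone. Neither does Cd4, as stated above, and which cells gave the reads of the other members was not tested.

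Myeloid genes were far above the T cell genes. The 12 macrophage genes summed to 907 to 1054 FPKM in WT THY1+ uSPG and to 420 to 811 FPKM in null THY1+ uSPG, and 12 of 12 were lower in WT KIT+ dSPG. Summed over the 8 T cell genes, null THY1+ uSPG was at 10.5 to 11.5 FPKM, below the WT range of 14.5 to 15.6 FPKM. In the KIT+ groups the 8 genes summed to 2.01 to 2.74 FPKM in WT and 1.80 to 2.51 FPKM in null mice, most of it Lck and Cd3e. The part of macrophages in the Cd4 reads was not tested.

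**Figure D5:**
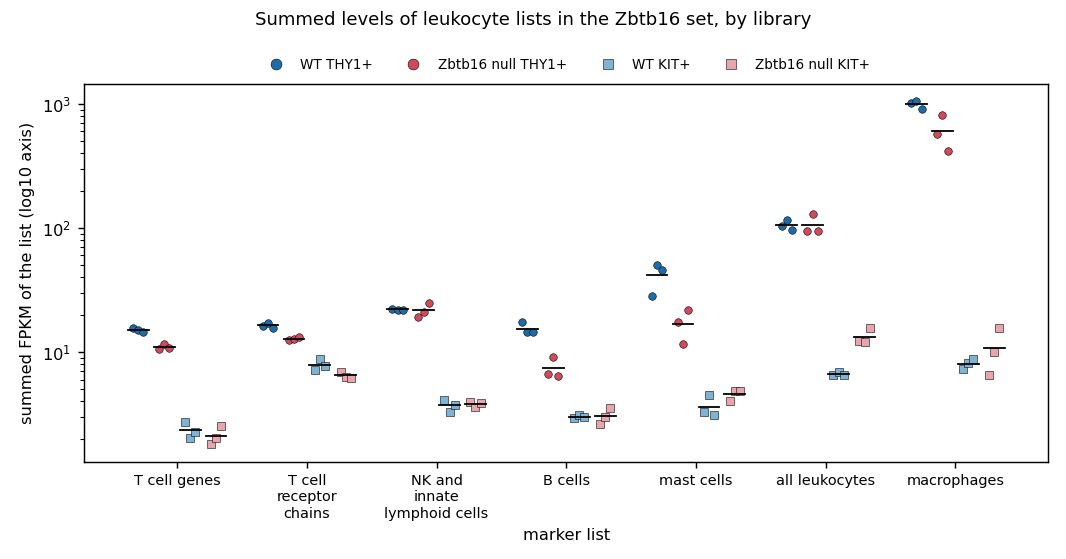
Summed FPKM (log10 axis) of 7 marker lists in the 12 libraries of the Zbtb16 set, with a point for each library and a bar at the mean of 3. T cell genes, receptor chains and NK genes lie between 10.5 and 25.0 FPKM in THY1+ libraries, and macrophage genes between 420 and 1054 FPKM.

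Genes whose pattern was most like that of the 8 were ranked among 15867 genes that reached a mean of 1 FPKM in both tables. Likeness was the smaller over the tables of Pearson's r with the mean log2(FPKM + 0.1) of the members over the 12 libraries of a table. Gpr65 (0.996), Aoah (0.996), Cd300a (0.994), Tifab (0.994) and P2ry12 (0.993) ranked highest. The libraries share a set and fall into high and low groups, so these values describe that split. Of the members, which enter the mean themselves, Cd4 and Cd3g had the highest r (0.993 and 0.992 in the Zbtb16 set) and Cd3e the lowest (0.434).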

How the data were processed

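Testes of mice at postnatal day 7 were sorted with magnetic beads for THY1 or KIT, and RNA of 24 libraries was sequenced after ribosomal depletion as stranded single reads. Reads were aligned with Novoalign to mm10 with Ensembl genes. The authors deposited FPKM per gene and library, with 1 table for the Zbtb16 set and 1 for the Sox3 set, each normalized separately, so tests stayed within a table.

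The FPKM values were analysed as log2(FPKM + 0.1) for genes with a mean of at least 0.1 FPKM over the 12 libraries of a table. limma 3.58.1 (R 4.3.3) fitted the means of the 4 groups with its trend and robust settings, and p-values were adjusted over all genes tested (Benjamini-Hochberg). Genes were called at a fold of 1.5 or more where the adjusted p did not exceed 0.05. The limma p-values of this fit rest on the spread between libraries within groups. That spread was estimated from all 12 libraries of a table and moderated over the genes tested. Each group holds 3 libraries of pooled mice. Whole reads per gene were recovered from FPKM steps for depth and counting intervals, which cover counting error only, and no count model was run on them. The scripts were tested on simulated data. Groups came from the labels, and 0 value columns were left unmapped.

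The members and the 18 gene lists beside them were chosen with earlier results of these data known. All 8 members are named, with Thy1, Kit, Zbtb16, Sox3, all receptor chain genes, the 2 most abundant genes of a list where it is described and the 5 genes most like the members. Most genes named outside this rule are said to be chosen after their values were seen. Ptprc, Prf1 and Hdc also fall outside it and are named without that mention. Alternatives were other pseudocounts, filters and scalings, plain limma settings, a replicate block, fewer groups, and each library left out. Promoters came from RefSeq (GRCm38.p6), and gene positions from GENCODE. Python 3.11.15 was used with numpy 2.4.6, pandas 2.3.3, scipy 1.17.1 and matplotlib 3.10.9.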

Additional observations from a re-analysis of the deposited data

Results flagged for a closer look

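For 7 of the 8 T cell genes, all but Cd3e, every Sox3 cKO library was above every WT library in the libraries labelled THY1+ and below every WT library in those labelled KIT+. Of all genes tested, 26.1% had every cKO library above in THY1+ and 24.8% every cKO library below in KIT+ libraries. The difference between the fractions was not tested. The log2 changes of cKO against WT as labelled were 5.70 in THY1+ and -5.97 in KIT+ libraries for Cd3g, 2.73 and -3.29 for Cd3d, and 2.56 and -2.77 for Cd2. They were 4.59 and -4.19 for Cd4, 2.02 and -2.14 for Cd8a, 1.22 and -0.88 for Lck, and 3.74 and -3.28 for Il7r. In the same WT libraries Thy1 was at 0.213 to 0.254 FPKM where the label is THY1+ and at 3.59 to 4.06 FPKM where it is KIT+, against 3.61 to 5.26 FPKM in Sox3 cKO THY1+ libraries. No library of a group of 3 was tested as an outlier.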

How the results depend on the processing

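No log2 change of a member changed sign where either fit called it, under 1996 combinations of result and alternative. Of these 1958 kept their side of the threshold, 21 lost a call and 17 gained one. Changes called in neither fit could change sign and were counted as kept, as for Cd3e between the null fractions (log2 change -0.41 to 0.13). Of 514 counts of members called, 496 stayed within 1.5 times the reported count. With a pseudocount of 1, 4 members were called lower in KIT+ than in THY1+ libraries in WT and 4 in null mice, 2 were lower in null THY1+ uSPG and 1 passed the interaction. A filter at a mean of 1 FPKM tested 3 members, which gave 3 calls in every comparison of fractions and of cKO with WT as labelled and 0 between null and WT THY1+ uSPG. Quantile normalization and limma without trend and robust settings each gave 2 members lower in null THY1+ uSPG, Il7r and Cd8a.

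With the replicate number as a block, 3 members were lower in null THY1+ uSPG (Il7r, Cd4 and Cd8a). The interaction was passed by 2 members (Il7r and Cd8a). Calls over all genes rose from 283 to 1004 lower in null THY1+ uSPG. In the interaction they rose from 1 to 2027 higher and from 6 to 729 lower. Deviations of same-numbered libraries had r over 0.1 in 16 of 18 pairs of the Zbtb16 set (mean r 0.326) and 12 of 18 of the Sox3 set (mean r 0.147). For libraries of different number the mean r was -0.164 and -0.073. These values follow from the former ones, since deviations from a group mean cancel within the group. By mean r, 11 of 12 and 9 of 12 libraries were closest to their own number, a hint of pairing from the data. The labels give no shared source. The study's methods describe testes of mutants and of their WT littermates pooled per isolation, and do not tie replicate numbers to isolations. Not every pair was over 0.1, the bar set here, so the fit without the block was kept. Whether the numbers mark shared isolations was not tested. That Cd4 and Cd8a did not pass in null THY1+ uSPG, nor Il7r and Cd8a in the interaction, depends on this choice. In the Sox3 set the block also called Cd3e lower in cKO KIT+ dSPG (adjusted p = 0.01003).

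Leaving out each library gave 1 to 2 members lower in null THY1+ uSPG, with 2 without WT KIT+ replicate 1 or null THY1+ replicate 2. The interaction had 0 to 1, with Il7r called without null KIT+ replicate 1, where calls over all genes went from 1 to 642 higher and from 6 to 225 lower. Between fractions 6 to 7 members were called in null mice and 7 to 8 in Sox3 cKO mice, and cKO against WT as labelled THY1+ gave 7 to 8. Over all genes, calls lower in null THY1+ uSPG fell from 283 to 59 without WT THY1+ replicate 1, 80 without replicate 2 and 184 without replicate 3, and to 60 and 73 without null THY1+ replicates 1 and 3. With replicates 2 and 3 alone Lck lost its calls in cKO KIT+ dSPG (adjusted p = 0.111 and 0.106). Low reads limit Cd3d, Cd8a and, in KIT+ libraries, Cd3g, Cd4 and Il7r. The cause of these shifts was not tested.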

Other observations

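Other leukocyte genes lay on the THY1+ side too. Over all genes tested 14.0% were called lower in WT KIT+ dSPG. All 12 genes shared by leukocytes were lower in WT KIT+ dSPG, with sums of 95.7 to 115 FPKM in WT THY1+ uSPG and 6.49 to 6.90 FPKM in WT KIT+ dSPG. Coro1a, an actin-binding protein of leukocytes, rose from 15.0 ± 3.11 to 43.6 ± 7.17 FPKM (SD, n = 3) in null THY1+ uSPG, with a log2 change of 1.54 (limma adjusted p = 0.000978), and it was the sole gene of that list to pass there. Of 8 B cell genes 4 were lower in WT KIT+ dSPG. Ighm, the IgM heavy chain, fell from 11.7 ± 1.79 to 4.65 ± 1.33 FPKM in null THY1+ uSPG (log2 change -1.34, limma adjusted p = 0.0168).

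Mast cell genes were in the THY1+ fraction although mast cells carry KIT. Of 7 genes 6 were lower in WT KIT+ dSPG and Hdc was higher. Cpa3 and Mcpt4, proteases of mast cell granules, fell in null THY1+ uSPG with log2 changes of -1.39 and -1.42 (limma adjusted p = 0.0224 and 0.0296). Of 8 dendritic cell genes 3 were lower in WT KIT+ dSPG and 0 passed between null and WT THY1+ uSPG. Lyz2, the macrophage lysozyme, was at 291 ± 10.2 FPKM in WT and 180.5 ± 49.8 FPKM in null THY1+ uSPG without passing (limma adjusted p = 0.565). All 12 macrophage genes had negative log2 changes in null THY1+ uSPG (median log2 change -0.75) and Cd68, named after its values were seen, passed, at 36.5 ± 2.06 FPKM in WT and 21.4 ± 4.84 FPKM in null libraries (limma adjusted p = 0.0208). Of 8 Sertoli cell genes 7 had a negative log2 change there (median -0.53, 0 called).

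Somatic and germ cell lists gave other patterns. Of all 22374 genes tested 1614 were called higher and 3123 (14.0%) lower in WT KIT+ dSPG. Lists with 1 of 8 genes called lower lie near that share. All 8 Leydig cell genes were higher in WT KIT+ dSPG, summing to 1308 to 2476 FPKM against 93.7 to 134 FPKM in WT THY1+ uSPG. Lower in WT KIT+ dSPG were 5 of 10 peritubular and stromal genes, 1 of 8 endothelial genes, 1 of 8 Sertoli cell genes (1 more was higher), 10 of 10 genes of undifferentiated spermatogonia and 1 of 8 genes of all germ cells, while of 8 genes of differentiating spermatogonia 5 were higher and 1 lower. Jak3, a kinase of IL-7 receptor signalling chosen after its values were seen, was at 29.1 ± 8.72 FPKM in WT KIT+ dSPG and 1.84 ± 0.245 FPKM in WT THY1+ uSPG (SD, n = 3), opposite to Il7r.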
